A study of Mus musculus with 60 samples.

Results

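Mitochondrial ribosomal protein genes were followed across all treatments of an EU-seq series in mouse cells. The members are all transcripts of the deposited count table whose GENCODE M21 symbol is Mrpl or Mrps followed by a number and, for some, a letter. The rule found 78 genes in 80 rows, of 27665 rows in the table, with 29 Mrps genes and 49 Mrpl genes. Counts by small (Mrps) and large (Mrpl) subunit follow the symbol alone, and the place of each protein in the ribosome was not checked. Mrpl48 fills 3 rows whose gene bodies overlap on the same strand, so these rows share reads and are not independent. Mrps36 matches the symbol but is now known as a subunit of the α-ketoglutarate dehydrogenase complex, and it was kept because the rule names it.

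The mitochondrial ribosome translates the few proteins encoded by mitochondrial DNA, all of them subunits of the respiratory chain or of ATP synthase. Its RNAs come from mitochondrial DNA, but its proteins are encoded in the nucleus and imported. Many members descend from proteins of bacterial ribosomes, and others exist in mitochondrial ribosomes only. CTCF is a zinc finger protein that binds DNA at loop anchors and at many promoters, and cohesin, of which RAD21 is a subunit, extrudes chromatin loops until it meets CTCF.

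EU-seq sequences RNA that took up 5-ethynyl uridine, here from 0.5 mM for 20 min before harvest, and so measures nascent transcripts in exons and introns alike. Control cells carried the same tags and alleles as treated cells and, per the methods, received DMSO. In E14 mESCs with GFP-AID-tagged CTCF (CTCF-AID), a degron triggered by IAA, 4 control libraries were set against 4 after 6 h of 500 µM IAA, and in each group 2 libraries were named stranded and 2 were not. In GFP-FKBP12F36V-Ctcf mESCs with the Y226A and F228A substitutions (CTCF YF-AA, a CTCF that lacks residues needed to contact cohesin), 2 control libraries were set against 2 after 2 h and 2 after 4 h of 200 nM dTAG-13, and the column names of the count table spell the first substitution Y227A. In bTAG-ΔN-CTCF/dTAG-CTCF-ΔC mESCs (ΔN/ΔC), one allele lacks the N-terminal region and is degraded by AGB1, and the other lacks the C-terminal region and is degraded by dTAG-13. That line gave 2 libraries each of controls, of 2 h of 100 nM AGB1, of 2 h of 100 nM dTAG-13 and of both, although the column names of the count table give 200 nM for dTAG-13. By this design AGB1 leaves the ΔC protein and dTAG-13 the ΔN protein. In GFP-AID-Rad21 mESCs (RAD21-AID), 4 h of 500 µM IAA was set against controls in an initial experiment (2 against 2 libraries) and in an additional one (12 against 12). Neuronal progenitor cells (NPCs) differentiated from RAD21-AID mESCs supplied 2 controls and pairs of libraries at 1, 2 and 4 h of 500 µM IAA. A further pair had 10 µM A-485 for 1 h, an inhibitor of the CBP and p300 acetyltransferases. The 60 libraries held between 4027449 and 21898781 counted reads. Summed over 9 rows of mESC marker genes, control mESC libraries held 5900 to 9213 TPM and NPC controls 317 to 324 TPM, and the 8 NPC markers summed to 26.4 to 49.8 TPM in mESCs and to 1399 to 1568 TPM in NPCs. RNA of the degron targets does not check the labels, since the degrons act on protein, and Ctcf changed by 0.05 on the log2 scale in CTCF-AID mESCs and Rad21 by −0.01 in the additional RAD21-AID experiment, neither of them called.

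Levels below are TPM over the counted gene body, exons and introns together. Changes are log2 fold changes from edgeR after the median of expressed transcripts was subtracted, so they are relative to the other transcripts of the same libraries. A gene was called when its Benjamini-Hochberg adjusted p in edgeR's quasi-likelihood test, over all transcripts tested, was under 0.05 and its change was at least 1.3-fold. The labels do not say whether replicates came from separate cultures. For CTCF depletion, the study's reporting summary names biological replicates for both stranded and other libraries. The p-values measure the spread between these libraries, which may be technical where replicates are not described. All 80 rows passed the count filter in all 14 comparisons.

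Promoters of the 3 genes on which the CTCF results turn are shown first, each as the 200 bases upstream of the start of the counted transcript (GRCm38.p6, RefSeq sequence, gene's sense strand, 5′ to 3′). Mrpl23, a large subunit protein whose bacterial counterpart sits beside the exit of the peptide tunnel, starts after chr7:142532812-142533011 on the plus strand. Mrps2, a small subunit protein with a bacterial counterpart, starts after chr2:28467866-28468065 on the plus strand. Mrps16, also a small subunit protein with a bacterial counterpart, is read from the minus strand and its window lies at chr14:20393635-20393834. Capitals mark matches to one of 3 spellings of the CTCF core motif, AGNNGGCGC, AGNGGNCGC and AGNNGGCAG, searched on both strands.
Mrpl23: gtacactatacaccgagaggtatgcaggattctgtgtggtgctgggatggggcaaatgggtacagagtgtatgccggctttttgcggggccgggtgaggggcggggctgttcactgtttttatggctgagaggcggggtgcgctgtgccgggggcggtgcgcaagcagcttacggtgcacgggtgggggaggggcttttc
Mrps2: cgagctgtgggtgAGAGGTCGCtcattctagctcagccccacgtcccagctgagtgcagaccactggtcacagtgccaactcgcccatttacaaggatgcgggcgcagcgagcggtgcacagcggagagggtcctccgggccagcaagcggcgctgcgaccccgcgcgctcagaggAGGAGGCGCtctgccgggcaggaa
Mrps16: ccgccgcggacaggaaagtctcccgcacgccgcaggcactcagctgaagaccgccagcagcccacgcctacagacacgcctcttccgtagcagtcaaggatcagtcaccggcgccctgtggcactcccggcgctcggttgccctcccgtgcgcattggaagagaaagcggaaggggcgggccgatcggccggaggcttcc

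The Mrps2 stretch held AGGAGGCGC at −24 to −16 and AGAGGTCGC at −187 to −179 from the gene's start, both on the sense strand, and a further match on the other strand lay downstream at 37 to 45. The Mrpl23 and Mrps16 windows held none of these spellings, which says only that these letters are not in these windows. Nor do the capitals show sites that CTCF binds. The paper described CTCF motifs in the Mrpl23 and Mrps2 promoters, and mutating them lowered reporter activity. Whether the spellings fall on those motifs was not examined. RefSeq promoter windows (250 bases before to 50 after the start) were given for 69 members. Any of the 3 spellings occurred in 15 of the 69 (21.7%) and in 19.8% of all 32851 promoter windows, and the GC content had a median of 58.3% in member windows and of 52.7% in all.

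In untreated cells the members spanned a wide range of nascent RNA. Their median lay between 58.1 and 85.9 TPM in the 7 control groups, and 75 to 79 of the 80 rows were above 15 TPM. Mrps2 had the highest level of all members in 6 of the 7 control groups, from 188 ± 22.1 TPM (SD, n = 2) in the initial RAD21-AID experiment to 343 ± 28.5 TPM (SD, n = 2) in ΔN/ΔC mESCs, and stood at rank 79 of 80 in NPCs, where Mrpl10 was highest. Mrpl23 lay at the other end, lowest of all 80 rows in CTCF YF-AA controls (11.1 ± 3.66 TPM, SD, n = 2) and ΔN/ΔC controls (7.71 ± 1.09 TPM, SD, n = 2) and at rank 11 from the lowest in NPCs (30.0 ± 0.94 TPM, SD, n = 2). Mrps16 was a middling member, with control means from 45.7 to 106 TPM. Lines were assayed in separate experiments, so a difference in level between lines cannot be told apart from one between experiments.

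Degradation of CTCF in CTCF-AID mESCs changed 3 of the 80 rows. Nascent RNA of Mrpl23 and Mrps2 fell and that of Mrps16 rose, and no other member was called. In the libraries not named stranded, Mrpl23 stood at 13.6 and 15.9 TPM in controls and at 1.60 and 0.48 TPM after IAA, and in the stranded libraries at 19.6 and 29.6 TPM in controls and at 1.37 and 2.78 TPM after IAA. Every treated library lay below every control. The log2 fold change of Mrpl23 was −3.63 (SE 0.31, adjusted p by edgeR = 0.00057), which leaves 8.06% of the control level. Those values rest on 42 reads against 555, and the counting interval of their ratio, scaled to library size, ran from 5.74 to 11.03% (exact, 95%, counting error only).

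Mrps2 stood at 241, 241, 304 and 266 TPM in the 4 control libraries and at 66.3, 66.4, 71.7 and 69.0 TPM after IAA. The treated values lay close together and all below the controls, and Mrps2 changed by −1.92 on the log2 scale (SE 0.13, adjusted p by edgeR = 0.00016), or 26.4% of the control level. Mrps16 moved the other way, from 55.5, 68.7, 76.9 and 58.4 TPM in controls to 111, 112, 149 and 129 TPM after IAA. Its log2 fold change was 0.96 (SE 0.18, adjusted p by edgeR = 0.027), again without overlap of the groups. All 3 genes kept their direction in all 4 pairs of same-numbered libraries. The libraries are bulk samples, so fewer transcribing cells and less RNA per cell cannot be told apart here or below.

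Members were called at 3.75% (3 of 80) and all transcripts at 3.36% (524 of 15611). Same-numbered control and treated libraries deviated together, and with the replicate number as a block the same 3 members were called while the calls over all transcripts rose to 2201, so the share of members called lay near the background only without the block. Decreases made up 2.5% of the members and 1.79% of all transcripts, and increases 1.25% and 1.56%. At 2-fold or more, Mrpl23 and Mrps2 were called, 2.5% of the members against 1.45% of all transcripts. The median change of the members was 0.02, the same as that of all transcripts tested, also 0.02. Of the 77 rows not called, the values ran from −0.22 (Mrps9) to 0.39 (Mrpl41), and 47 had a 95% interval that lay within 1.3-fold of no change. These intervals come from the fit without the block. Of the rows listed as having a bacterial counterpart 3 of 45 were called (6.67%), and of those listed as specific to mitochondria 0 of 35. The difference was not tested, and the 35 include Mrps36 and the 3 rows of Mrpl48. The rise of Mrps16 lost its call in 5 of the 8 fits that left out 1 library, namely either control or either IAA library not named stranded or the first stranded IAA library, with adjusted p between 0.057 and 0.11. Within the stranded libraries alone no member and no transcript was called (adjusted p = 0.22 for Mrpl23 and Mrps2), with log2 fold changes of −3.49, −2.01 and 1.06 for the 3 genes, and within the libraries not named stranded the same 3 were called.

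**Figure D1:**
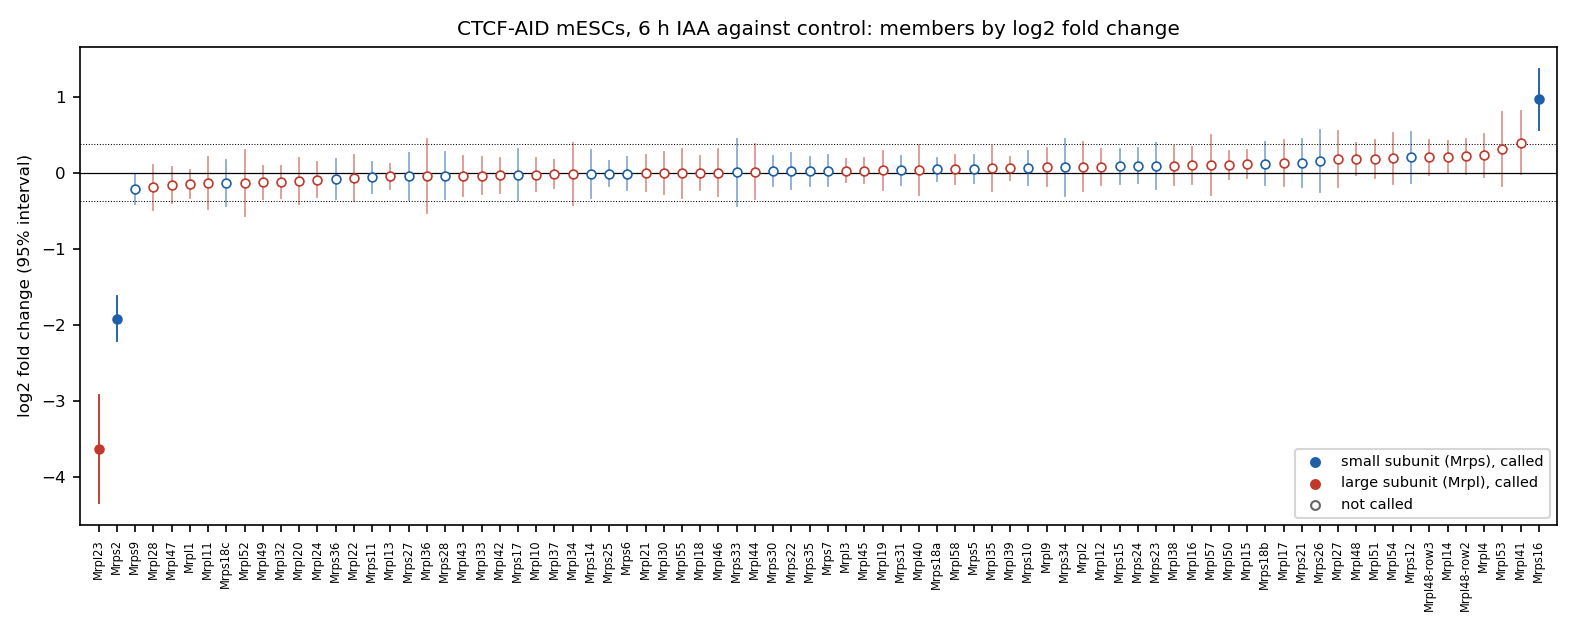
Log2 fold change (6 h of IAA over control, CTCF-AID mESCs, 4 libraries against 4) of each of the 80 rows, ordered by its value, with 95% intervals from the edgeR fit. Filled points are called, dotted lines mark 1.3-fold; Mrpl23 (−3.63), Mrps2 (−1.92) and Mrps16 (0.96) stand apart and the other 77 rows lie between −0.22 and 0.39.

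Neighbouring genes were examined around the 3 promoters. In CTCF-AID mESCs, none of the 8 counted transcripts within 100 kb of Mrpl23 had enough reads to be tested. Of the transcripts tested within the same distance, 0 of 6 near Mrps2 (0.05 to 0.55) and 0 of 7 near Mrps16 were called, the latter from −0.74 for Cfap70 (SE 0.24, adjusted p by edgeR = 0.16) to 0.33. In the additional RAD21-AID experiment, 1 of 1 tested near Mrpl23 (0.63) and 1 of 7 near Mrps16 (0.38) were called. None of the 3 gene bodies overlaps another counted gene.

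The CTCF YF-AA line asked whether the same genes respond to loss of a CTCF already altered at residues that contact cohesin. After 2 h of dTAG-13, 3 of the 80 rows were called (3.75%, background 2.7% of 14009), again Mrpl23, Mrps2 and Mrps16. After 4 h, 4 rows were called (5%, background 3.33% of 14280), those 3 and Mrps7. Both times used the same 2 control libraries, so their values are given side by side and are not independent.

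Mrpl23 stood at 13.7 and 8.50 TPM in the controls, at 0.58 and 0.27 TPM after 2 h and at 0 and 2.10 TPM after 4 h. The log2 fold change was −4.66 (SE 0.77, adjusted p by edgeR = 1.64e-07) at 2 h and −3.10 (SE 0.59, adjusted p by edgeR = 0.00016) at 4 h. DESeq2 gave Mrpl23 no adjusted p at 2 h and one of 0.70 at 4 h, and so did not call it. These levels rest on few reads, 58 in the controls together, 2 after 2 h (3.71% of control, counting interval 0.44 to 14.03%) and 8 after 4 h (11.95%, 4.93 to 25.1%). The intervals overlap, and a difference between 2 and 4 h was not detectable at this depth. Mrps2 stood at 296 and 374 TPM in controls, at 132 and 85.5 TPM after 2 h and at 70.1 and 90.7 TPM after 4 h. Its log2 fold change was −1.74 (SE 0.15, adjusted p by edgeR = 3.99e-30) at 2 h and −2.09 (SE 0.14, adjusted p by edgeR = 3.81e-17) at 4 h. Mrps16 rose from 115 and 96.5 TPM to 146 and 161 TPM after 2 h and to 136 and 166 TPM after 4 h. The log2 fold change of Mrps16 was 0.58 (SE 0.15, adjusted p by edgeR = 0.0063) at 2 h and 0.53 (SE 0.14, adjusted p by edgeR = 0.015) at 4 h. Mrpl34, not called, lay above Mrps16 at 2 h, at 0.72 (SE 0.34, adjusted p by edgeR = 0.34).

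Mrps7, a small subunit protein of the head of the subunit, was named after its values were seen. It stood at 180 and 222 TPM in controls, at 155 and 191 TPM after 2 h and at 167 and 140 TPM after 4 h, with log2 fold changes of −0.22 (not called) and −0.46 (SE 0.12, adjusted p by edgeR = 0.012). The gene body of Mrps7 overlaps those of Gga3 and Mif4gd on the opposite strand, by at most 127 bases with either gene. DESeq2 called neither Mrps16 (adjusted p = 0.25 at 2 h and 0.31 at 4 h) nor Mrps7 at 4 h (0.34). Without the second control library or without the second library of 4 h, Mrps7 (adjusted p = 0.51 and 0.31) and Mrps16 at 4 h (0.30 and 0.46) lost their calls, and Mrps16 at 2 h lost its call without the second control (0.31) or the second treated library (0.23). Without the second library of 4 h, which holds all 8 reads, Mrpl23 came to −7.92 against a single library without reads, and without the first to −2.30.

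The ΔN/ΔC line separates loss of one truncated CTCF from loss of the other. After AGB1, which left CTCF without its C-terminal region, 3 of 80 rows were called (3.75%, background 1.44% of 13619), and they were Mrpl23, Mrps2 and Mrps16. After dTAG-13, which left CTCF without its N-terminal region, 0 of 80 were called (background 0.0587% of 13618, 8 transcripts), with 1 member at an unadjusted p under 0.05 in edgeR and 0 called by DESeq2. With both agents the same 3 genes were called (3.75%, background 3.5% of 13753). The 3 treatments share their 2 controls.

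Mrpl23 stood at 6.93 and 8.48 TPM in controls, at 5.73 and 5.73 TPM after dTAG-13, at 1.21 and 1.96 TPM after AGB1 and at 0.52 and 0.45 TPM after both. Both AGB1 libraries lay below both dTAG-13 libraries, and both double-treated libraries below these, although AGB1 alone and both agents were not tested against each other. Against control, the log2 fold change was −2.27 (SE 0.40, adjusted p by edgeR = 0.00039) with AGB1, −0.45 (SE 0.30, adjusted p by edgeR = 1.00, 95% interval −1.06 to 0.16) with dTAG-13 and −3.90 (SE 0.49, adjusted p by edgeR = 2.87e-07) with both. The reads behind these values were 65, 14, 50 and 5, so that dTAG-13 left 73.0% of the control level with a counting interval of 49.5 to 107%, and a decrease of that size was not resolved at this depth.

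For Mrps2, both AGB1 libraries again lay below both dTAG-13 libraries, while the dTAG-13 libraries overlapped with the controls. Mrps2 stood at 323 and 364 TPM in controls, 344 and 320 TPM after dTAG-13, 141 and 113 TPM after AGB1, and 100.2 and 94.6 TPM after both. The log2 fold changes of Mrps2 were −0.07 (95% interval −0.23 to 0.09) with dTAG-13, −1.46 (SE 0.10, adjusted p by edgeR = 9.57e-12) with AGB1 and −1.81 (SE 0.09, adjusted p by edgeR = 4.07e-17) with both. Mrps16 stood at 64.1 and 71.1 TPM in controls, 77.2 and 67.2 TPM after dTAG-13, 117 and 109 TPM after AGB1 and 125 and 120 TPM after both. Its log2 fold changes were 0.07 (95% interval −0.21 to 0.34), 0.71 (SE 0.12, adjusted p by edgeR = 0.00016) and 0.86 (SE 0.11, adjusted p by edgeR = 5.13e-07). The smallest adjusted p among the members after dTAG-13 was that of Mrpl58, a peptidyl-tRNA hydrolase of the large subunit that frees stalled ribosomes, at −0.35 (adjusted p by edgeR = 0.99).

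The difference between the agents was tested directly, AGB1 against dTAG-13 at the same time and labelled dose. The same 3 rows were called (3.75%, background 1.28% of 13678), with log2 differences of −1.82 for Mrpl23 (SE 0.41, adjusted p by edgeR = 0.024), −1.39 for Mrps2 (SE 0.11, adjusted p by edgeR = 5.99e-07) and 0.64 for Mrps16 (SE 0.12, adjusted p by edgeR = 0.0057). Without the first or the second AGB1 library, Mrpl23 lost this call (−1.56 and −2.19, adjusted p = 0.16 and 0.055), and DESeq2 gave Mrpl23 no adjusted p here or with both agents.

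**Figure D2:**
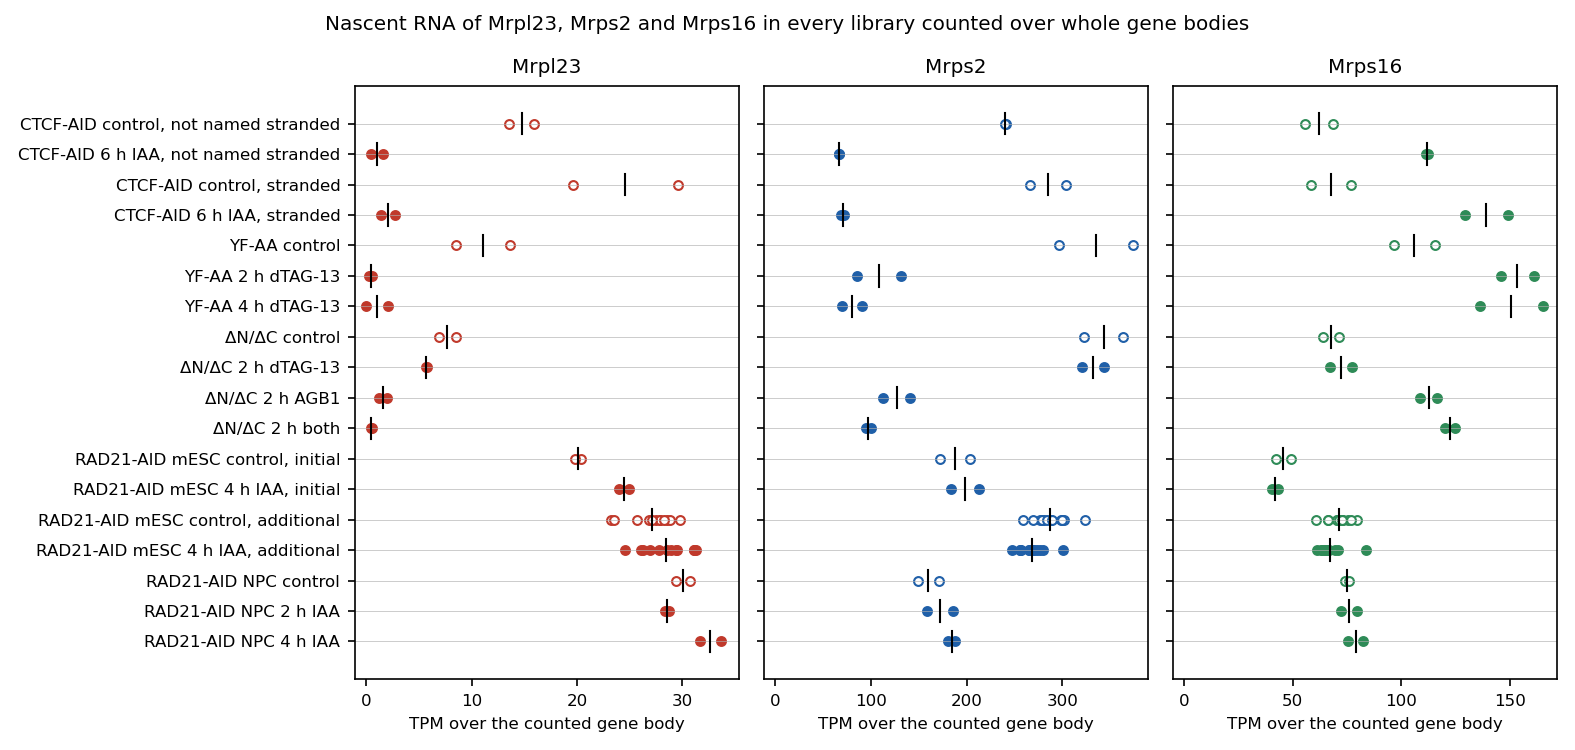
TPM over the counted gene body of Mrpl23, Mrps2 and Mrps16 in every library counted over whole gene bodies, 1 row per group. Open circles are control libraries, filled circles treated libraries and vertical bars group means. In CTCF-AID and CTCF YF-AA mESCs and after AGB1 the treated libraries of all 3 genes lie apart from the controls. In the additional RAD21-AID experiment they overlap with them. In the initial one both treated Mrpl23 libraries (23.9 and 24.9 TPM) lie above both controls (19.8 and 20.3 TPM). Some treated NPC groups also lie apart from their controls, and neither these nor Mrpl23 in the initial experiment were called.

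No member was called after RAD21 degradation in the larger mESC experiment. In this additional experiment, with 12 libraries against 12, 0 of the 80 rows passed while 12.3% of 15732 transcripts did. DESeq2 called 0 as well. At an unadjusted p under 0.05 in edgeR stood 35 members, and 28 had an adjusted p under 0.05, but all changes were smaller than 1.3-fold. They ran from −0.20 (Mrpl39) to 0.27 (Mrpl36), with a median of 0.00 against 0.03 over all transcripts, and 78 of the 80 intervals lay within 1.3-fold. Mrpl39, a large subunit protein specific to mitochondria, had the smallest adjusted p (3.22e-11 by edgeR) at a change of −0.20 and was lower in 12 of 12 pairs of same-numbered libraries.

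Mrpl23 ranged from 23.2 to 29.8 TPM in the 12 controls (median 27.7) and from 24.6 to 31.3 TPM after IAA (median 28.7), and the ranges overlapped almost fully. Its log2 fold change was 0.10 (SE 0.05, adjusted p by edgeR = 0.11, 95% interval 0.00 to 0.19). Mrps2 ranged from 259 to 324 TPM in controls (median 286) and from 248 to 301 TPM after IAA (median 267.4), a log2 fold change of −0.07 (SE 0.03, adjusted p by edgeR = 0.033, below the fold needed for a call). Mrps16 ranged from 60.9 to 79.5 TPM in controls (median 71.9) and from 61.2 to 83.7 TPM after IAA (median 65.8), a log2 fold change of −0.06 (SE 0.05, adjusted p by edgeR = 0.23).

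In the initial experiment 1 of the 80 rows was called (1.25%, background 4.74% of 15177), Mrps33, a small protein of the small subunit, which stood at 27.9 and 25.1 TPM in controls and 36.7 and 33.6 TPM after IAA (log2 fold change 0.51, SE 0.15, adjusted p by edgeR = 0.015). Its call was lost without the second control (adjusted p = 0.19) and without either treated library (0.24 and 0.13), and in the additional experiment it changed by −0.06 (adjusted p = 0.22). The members' median in the initial experiment was 0.10, above the 0.01 of all transcripts tested. Mrpl23 came to 0.39 (SE 0.19, adjusted p by edgeR = 0.21), from 20.3 and 19.8 TPM to 24.9 and 23.9 TPM.

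A fit over CTCF-AID and the additional RAD21-AID libraries tested the difference between the effects of the 2 degrons. The difference was called for 3 of the 80 rows (3.75%, background 13.8% of 16225), and these were Mrpl23 (−3.70, SE 0.17, adjusted p by edgeR = 2.98e-18), Mrps2 (−1.86, SE 0.10, adjusted p by edgeR = 3.77e-17) and Mrps16 (1.02, SE 0.13, adjusted p by edgeR = 9.04e-08). Line, experiment and time of treatment (6 h and 4 h) differ together here and cannot be told apart. The fit pooled the spread of both sets of libraries, most of them RAD21-AID. Its SEs are smaller than those of the CTCF-AID effects alone, so its p-values do not measure the spread between CTCF-AID libraries by itself. With the initial RAD21-AID libraries in place of the additional ones, the difference for Mrps16 was 0.99 with an adjusted p of 0.26.

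**Figure D3:**
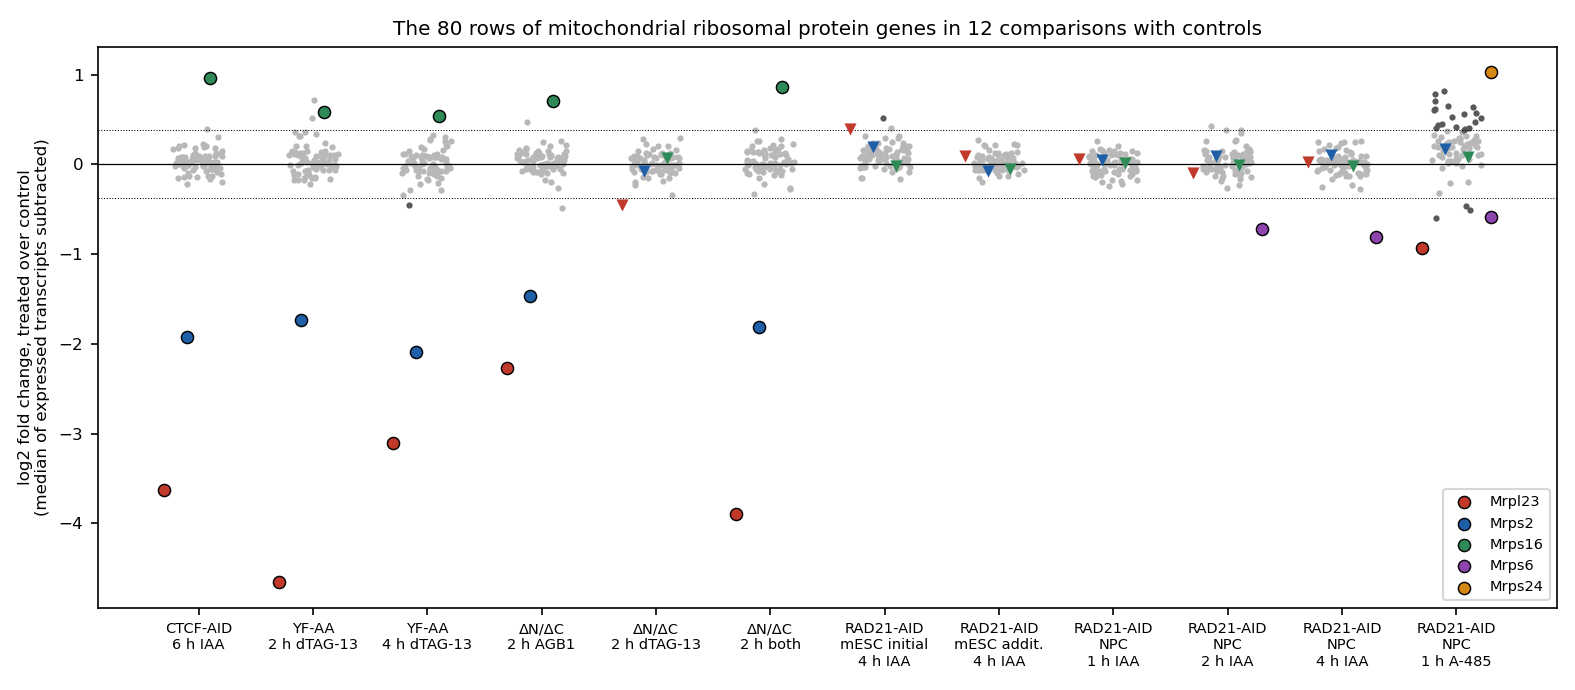
Log2 fold change of all 80 rows in the 12 comparisons of treated cells with controls, 1 point per row, with dotted lines at 1.3-fold. Outlined circles in colour and dark points are called. Triangles are Mrpl23, Mrps2 and Mrps16 where they were not called and grey points other rows not called. Mrpl23, Mrps2 and Mrps16 are called in each comparison of CTCF loss except dTAG-13 in ΔN/ΔC mESCs, and in no comparison of RAD21 loss. At 2 h of dTAG-13 in CTCF YF-AA mESCs, Mrpl34 (0.72, not called) lies above Mrps16 (0.58).

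In NPCs, RAD21 degradation reached 0 of the 80 rows at 1 h (background 5.09% of 15860), 1 at 2 h (1.25%, background 9.34% of 15995) and 1 at 4 h (1.25%, background 16.7% of 16148). The 3 times share their 2 controls, and in the 1 h libraries reads were counted over at most the first 90 kb of a gene. At 1 h, 9 members had an unadjusted p under 0.05 in edgeR, and DESeq2 called 0 as well. The 1 member was Mrps6 at both later times, a small subunit protein with a bacterial counterpart. It stood at 40.5 and 42.7 TPM in controls, at 24.6 and 26.9 TPM after 2 h and at 25.6 and 25.1 TPM after 4 h. The log2 fold change of Mrps6 was −0.17 at 1 h (adjusted p by edgeR = 0.035, below the fold needed), −0.72 at 2 h (SE 0.07, adjusted p by edgeR = 9.1e-05) and −0.81 at 4 h (SE 0.04, adjusted p by edgeR = 3.73e-15). Nearly the whole gene body of Mrps6 (53912 of 53958 bases) is shared on the same strand with Slc5a3, a myo-inositol transporter gene, and Gm49711. Slc5a3 changed by −0.76 and −0.80 and Gm49711 by −0.74 and −0.82 at 2 and 4 h, and reads of these genes cannot be told apart in the counts. In mESCs of the additional RAD21-AID experiment Mrps6 changed by −0.03 (adjusted p by edgeR = 0.22).

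At 1 h of IAA the smallest adjusted p among the members was that of Mrps28, a small subunit protein encoded by the longest gene of the set (121773 bases), at a change of −0.24 (adjusted p by edgeR = 0.019). Mrpl23 (0.07, −0.10 and 0.03 at 1, 2 and 4 h), Mrps2 (0.05, 0.09 and 0.11) and Mrps16 (0.01, 0.00 and −0.02) were not called at any time in NPCs. CTCF was not degraded in NPCs in this series, so no NPC value bears on CTCF loss.

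Inhibition of CBP and p300 with A-485 for 1 h in NPCs moved more members than any degron. It called 25 of 80 rows (31.2%), with a background of 44.5% of 16009 transcripts. The directions differed from the background, since 5 rows fell (6.25%, background 33%) and 20 rose (25%, background 11.4%). That background holds weakly transcribed rows, with 9836 of the 16009 transcripts above 15 TPM, while 77 of the 80 member rows were above 15 TPM in NPC controls. Shares among transcripts of like level were not computed, so how far level adds to this difference was not tested. The members' median was 0.22, and that of all transcripts tested was −0.11. Of the 20 that rose, 8 are Mrps and 12 Mrpl by symbol. The median subtracted from all values, 0.12, was the largest of the comparisons with controls, and without this step 33 rows were called higher and 4 lower.

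Mrpl23 fell most, from 17.3 and 16.0 normalised CPM in controls to 9.48 and 9.54 CPM, counted over at most the first 90 kb. This log2 fold change was −0.93 (SE 0.13, adjusted p by edgeR = 5.35e-05), or 52.5% of the control level. Mrpl52, a large subunit protein specific to mitochondria, fell from 28.9 and 26.8 CPM to 20.5 and 19.5 CPM (log2 fold change −0.60, adjusted p by edgeR = 0.00062). The other decreases were those of Mrps6 (−0.59, with Slc5a3 at −0.68), Mrps36 (−0.50) and Mrps28 (−0.47), of which Mrps28 had no call without the centring. Mrps2 (0.17, adjusted p by edgeR = 0.0044) and Mrps16 (0.08, adjusted p by edgeR = 0.067) did not reach the fold needed for a call.

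Mrps24, the counterpart of a bacterial small subunit protein at the entry of the mRNA channel, rose most, from 17.9 and 17.3 CPM to 40.7 and 37.2 CPM (log2 fold change 1.02, SE 0.10, adjusted p by edgeR = 3.34e-08). Next in size, and named after their values were seen, came Mrps26 (0.81), Mrpl49 (0.78), Mrps11 (0.71), Mrpl28 (0.65), Mrpl32 (0.64) and Mrpl30 (0.62). The treated libraries of all 25 called rows rose or fell together in each of the numbered pairs. Since the fit has no spike-in, a rise is one relative to the other transcripts of these libraries, and whether the absolute amount rose was not tested.

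**Figure D4:**
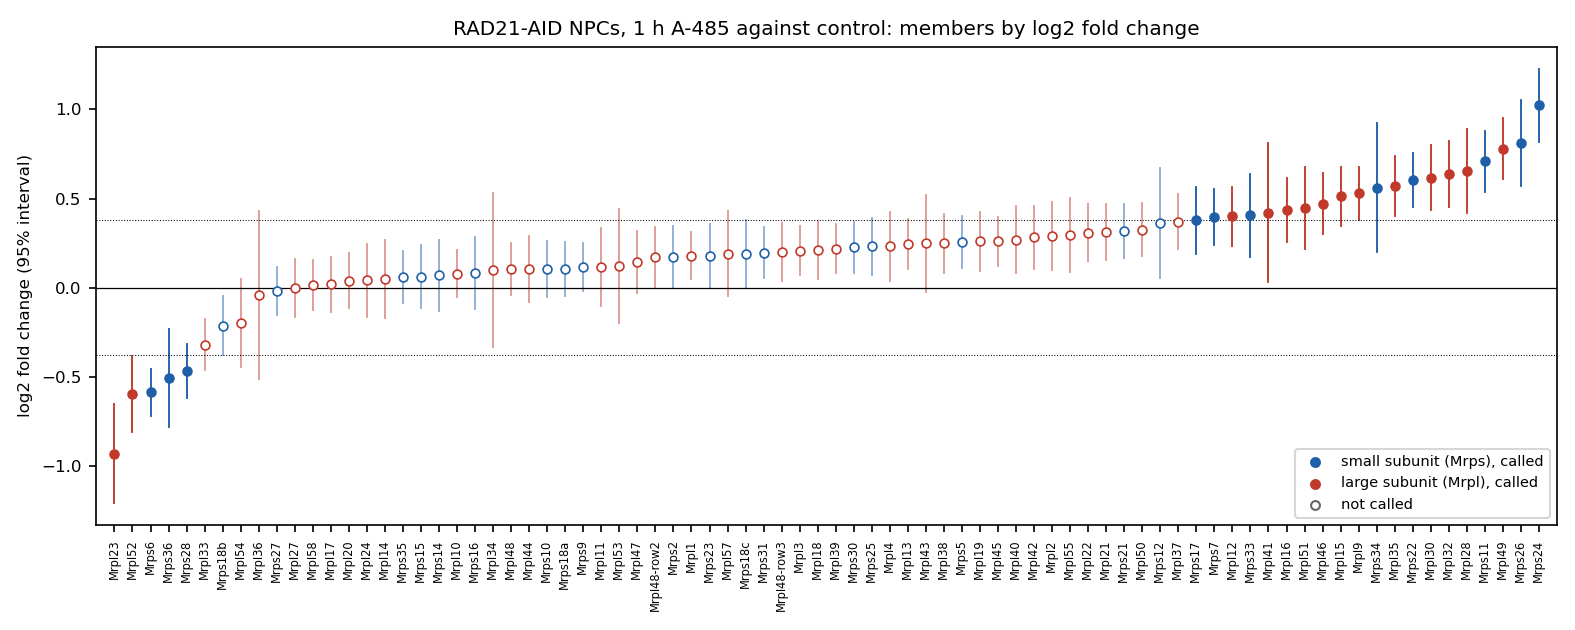
Log2 fold change (1 h of A-485 over control, RAD21-AID NPCs, 2 libraries against 2) of each of the 80 rows, ordered by its value, with 95% intervals from the edgeR fit. Filled points are called, dotted lines mark 1.3-fold; 5 rows from Mrpl23 (−0.93) to Mrps28 (−0.47) are called lower and 20 up to Mrps24 (1.02) higher.

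Other genes of mitochondrial translation were counted by lists chosen with earlier results of these data known. After CTCF loss in CTCF-AID mESCs, 2 of 14 translation factors were called, Gfm1, the elongation factor that moves the ribosome along the mRNA (−1.32, adjusted p by edgeR = 0.0010), and Tsfm, the exchange factor of the elongation factor Tufm (−0.54, adjusted p by edgeR = 0.017). Of 26 rows for assembly and rRNA modification, 3 were called, both rows of Dhx30, a helicase of mitoribosome assembly (−0.75 and −0.49), and Mrm1, an rRNA methyltransferase (−0.79). Of 17 aminoacyl-tRNA synthetases, Aars2, which charges the mitochondrial alanine tRNA, was called (−0.93, adjusted p by edgeR = 0.0046). None of 12 genes for transcription and replication of mitochondrial DNA and none of 5 ribosomal proteins without an Mrp symbol was called. All 6 calls in these lists were decreases, where 3.36% of all transcripts were called and 1.79% called lower, and the list medians lay between −0.05 and −0.01, against 0.02 over all transcripts.

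Gfm1, Tsfm and Aars2 were called lower in both CTCF YF-AA comparisons and after AGB1 alone and with dTAG-13, with Gfm1 between −1.07 and −0.86, Tsfm between −0.52 and −0.43 and Aars2 between −1.01 and −0.58. No gene of these 5 lists was called after dTAG-13 in ΔN/ΔC mESCs, nor in either RAD21-AID experiment in mESCs. In NPCs, Mpv17l2 rose at 1 and 2 h of IAA (0.52 and 0.48) and Mtif3 at 4 h (0.43). After A-485, 15 of the 74 rows were called higher and 2 lower, with list medians from 0.05 to 0.16. The shares over all tested transcripts, weakly transcribed ones included, were 11.4% and 33%.

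**Figure D5:**
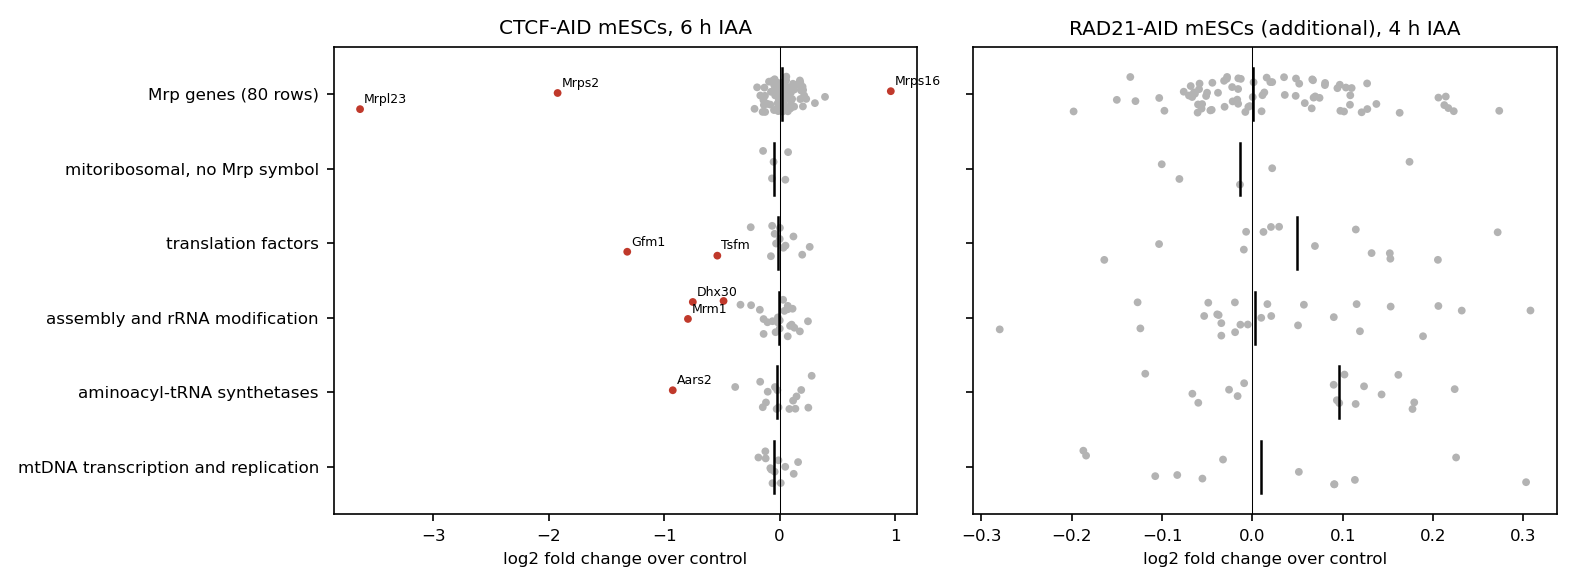
Log2 fold change over control of the 80 member rows and of 5 lists of other mitochondrial translation genes, with CTCF-AID mESCs on the left and the additional RAD21-AID experiment on the right, drawn on different x scales. Each point is a row of the count table, red points with names are called and black bars are list medians; 9 rows are called on the left and none on the right.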

How the data were processed

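The authors aligned EU-seq reads to mm10 with BWA, filtered them with SAMtools 1.4, removed rRNA and tRNA reads with bedtools and counted with HTSeq over the gene body of representative transcripts, chosen by promoter H3K4me3 peaks or as the longest isoform, so that some genes have several rows. The deposited values are raw counts, over at most the first 90 kb for the 1 h treatments. Whether gene counting used strand is not stated. GENCODE M21 named 27455 of 27665 transcripts. The members and lists were chosen with earlier results of these data known.

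In R 4.3.3, transcripts with a mean count above 20 in either group were tested with edgeR 4.0.16 (TMM, quasi-likelihood F test, two-sided, Benjamini-Hochberg), with the kind of library (stranded or not) in the CTCF-AID model, and the median log2 fold change of transcripts above 15 TPM was subtracted. The p tests the change before this step. DESeq2 1.42.0, no filter, no centring, single library types, batches, replicate blocks and leaving out each library were alternatives. The fits were tested on simulated data. Named genes were Mrpl23, Mrps2, Mrps16, members called in CTCF-AID in all pairs, in both CTCF YF-AA times or both AGB1 comparisons, and the largest called decrease and increase elsewhere, or the smallest adjusted p. Deviations of same-numbered CTCF-AID libraries correlated between 0.47 and 0.80 over the 4 pairs. The replicate block among the alternatives therefore paired them by number. The main CTCF-AID fit held no such block, so its SEs, intervals and adjusted p-values do not use the pairing. None of 151 replicate pairs agreed within sampling noise (lowest chi-square per degree of freedom 1.44). For 18 early libraries the treatment text speaks of triptolide where titles name none, and groups follow the titles.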

Additional observations from a re-analysis of the deposited data

Results flagged for a closer look

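In a fit with an interaction term, the log2 fold change of Mrpl23 after 6 h of IAA in CTCF-AID mESCs minus that after 4 h in RAD21-AID mESCs was −3.70 (adjusted p by edgeR = 2.98e-18). The same difference was −1.86 for Mrps2 (adjusted p by edgeR = 3.77e-17). It was 1.02 for Mrps16 (adjusted p by edgeR = 9.04e-08). These 3 of the 80 rows were singled out because the 2 lines differed in their response, and the lines, their experiments and the times of treatment cannot be told apart. The p-values pool the spread of both sets of libraries, most of them RAD21-AID, and are smaller than those of the CTCF-AID effects alone. No group held 4 to 10 libraries, so none was examined for a single outlying library.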

How the results depend on the processing

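Among the named members, no called change reversed under the alternatives run. Of their results with an adjusted p, 410 kept their call or lack of one and 25 lost a call. Other called rows were not followed gene by gene. Of the 122 counts of called members under alternatives, 109 stayed within 1.5 times their value and 13 did not. In CTCF-AID mESCs the count was 0 in the stranded libraries alone, 3 in those not named stranded, and 2 to 3 when 1 library was left out. With DESeq2 it was 1 at both times of CTCF YF-AA and 0 in the initial RAD21-AID experiment. DESeq2 gave Mrpl23 no adjusted p at 2 h of CTCF YF-AA, with both agents in ΔN/ΔC and for AGB1 against dTAG-13, and one of 0.70 at 4 h of CTCF YF-AA. Leaving out 1 library gave 2 to 4 calls at 4 h of CTCF YF-AA, with 2 without the second control or the second treated library. It gave 0 to 2 calls in the initial RAD21-AID experiment, 2 without the first control and 0 without any of the other 3. In NPCs it gave 1 to 3 at 2 h, 3 without the first treated library, and 1 to 2 at 4 h, 2 without the first control or the first treated library. The causes of these shifts were not tested. With the replicate number as a block the counts were 3 in CTCF-AID (paired libraries), 3 and 4 in CTCF YF-AA at 2 and 4 h, 3 for AGB1, 0 for dTAG-13, 3 for both agents, 3 for AGB1 against dTAG-13, 1 and 0 in the initial and additional RAD21-AID experiments, 0, 1 and 1 in NPCs at 1, 2 and 4 h and 24 with A-485, so the block changed no count of members by over 1.5 times. In the additional RAD21-AID experiment 5 of 12 libraries correlated best with their own number. In the initial RAD21-AID experiment and at 1 h in NPCs same-numbered libraries deviated in opposite directions (correlation −0.14 in each), and crossed blocks, added after seeing the data, gave 1 and 0 called members. With batch as a covariate, or in batch CC53 alone, no member was called in the additional RAD21-AID experiment. Leaving out each CTCF-AID library in turn from the comparison of the 2 degrons, also added after seeing the data, called 3 members each time. Depth limits Mrpl23 most, with 2 to 14 reads in the 2 treated libraries together after dTAG-13 in CTCF YF-AA and after AGB1. Over all transcripts, the 524 calls in CTCF-AID became 894 with DESeq2, 2201 with the replicate block, 0 and 1089 in stranded and other libraries alone, and 209 to 235 without any 1 library not named stranded. DESeq2 also gave 215 rather than 378 and 275 rather than 475 calls in CTCF YF-AA, 273 rather than 482 for both agents in ΔN/ΔC and 340 rather than 719 in the initial RAD21-AID experiment, which had 413 and 352 without the first and second treated library. For dTAG-13 in ΔN/ΔC the 8 calls became 13 with the block or without the first treated library. In NPCs at 2 h, 1494 became 2389 without the first treated library. Without a filter the additional RAD21-AID experiment gave 2920 rather than 1932 calls. The comparison of the 2 degrons gave 212 rather than 2244 with the initial RAD21-AID libraries.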
